A study of Mus musculus with 33 samples.

Results

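A set of 308 genomic regions had a p53 peak in every activated Arf-null lymphoma list and in no OHT list of the same series. The regions were chosen by the presence or absence of called peaks. Peaks of all 26 deposited p53 lists were joined where they shared at least 1 bp, which gave 18927 regions. A region was kept when it had a peak in all 6 lists of Arf-null tumours given doxorubicin or (-)-Nutlin, in none of the 4 OHT lists, in no ethanol list, and not in all 12 lists of untreated, water, DMSO or (+)-Nutlin cells. The rule kept 1.63% of all regions. Of 3206 regions with a peak in all 6 activated lists, 309 (9.64%) had no OHT peak, and 1 of them was left out because all 12 unactivated lists also held it. These counts describe the rule and carry no test.

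The data are chromatin immunoprecipitations with a p53 antibody from B cell lymphomas of Eµ-myc mice on a C57/Bl6 background, in which an immunoglobulin enhancer drives Myc in the B lineage. Tumours 1 to 4 carried a Trp53 knock-in allele opposite a deleted one, Trp53(KI/delta), and were exposed for 2 h to 100 nM OHT (4 lists) or to ethanol at 1 volume per 1000 (4 lists). Tumours 5 to 7 were Arf-/- Trp53+/+ and were left untreated or exposed for 3 h to water at 1 volume per 1000, DMSO at 0.5 volumes per 1000, 5 µM (+)-Nutlin, 5 µM (-)-Nutlin or 1 µM doxorubicin, with 3 lists per condition. All tumours thus share the Myc transgene, and the OHT and activated Arf-null lists differ in Trp53 genotype, Arf genotype, agent and time together, so these cannot be told apart. Tumour cells came from pressed lymph nodes with no purification, the age of the mice is not given, and the peak lists hold no expression values with which the labelled cell type could be checked.

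p53 is a transcription factor that binds DNA as a tetramer and switches on genes of cell-cycle arrest, apoptosis and repair. Its level is held down by Mdm2, a ubiquitin ligase that marks it for degradation, and Arf blocks Mdm2 when an oncogene such as Myc is active. Tumours without Arf can keep intact Trp53, which DNA damage by the topoisomerase poison doxorubicin, or displacement from Mdm2 by (-)-Nutlin, can still activate. (+)-Nutlin is the mirror-image molecule, with weak affinity for Mdm2. The knock-in allele of the KI tumours encodes p53 joined to a modified oestrogen receptor domain, and OHT, a tamoxifen metabolite, makes this fusion functional.

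The deposited lists give position and width of each peak and nothing else, so presence and width are the measures used here, and read depth is unknown. OHT lists held 4102, 3597, 10084 and 9738 peaks in tumours 1 to 4, activated Arf-null lists 5617 to 11346, unactivated Arf-null lists 707 to 2696 and ethanol lists 116 to 742. The ethanol lists and the unactivated lists of tumours 6 and 7 consisted of narrow peaks, with list medians of 68 to 111 bp. The other 14 lists, including all lists of tumour 5, had list medians of 417 to 552 bp. A missing peak means that none was called, which is not a measurement of zero binding. All positions are on the mouse build mm9 and are counted from 1.

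Distances from the 308 regions to the nearest OHT peak spanned a wide range. The rule bars an overlapping OHT peak, and no distance was measured for other regions. These values therefore only describe the group. The distance to the nearest OHT peak of any tumour had a median of 87.0 kb, with quartiles of 25.8 kb and 305 kb. It was under 1 kb for 3 regions, under 10 kb for 42, at least 100 kb for 142 and at least 1 Mb for 25. Counting an OHT peak within 500 bp as present left the number at 308. The nearest case, at chr4:120888635-120889315, lay 645 bp from an OHT peak, and next came regions at chr13:73898733-73900209 (677 bp) and at chr1:135997087-135998696 (983 bp). At the other end, a region at chr14:3271993-3272624 was 5333735 bp from the closest OHT peak, one at chr3:46547610-46548432 was 4479685 bp away, and one at chrX:114733102-114733938 was 3683179 bp away.

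The OHT list of tumour 1 set much of the size of the group. Among the 2448 regions that met the rest of the rule, 308 had a peak in 0 OHT lists, 334 in 1, 586 in 2, 626 in 3 and 594 in all 4. Of the 334 regions in a single OHT list, 303 were in that of tumour 1, whereas 10, 10 and 11 were in those of tumours 2, 3 and 4. Put the other way, 611 regions had no peak in the OHT lists of tumours 2 to 4, and 303 of them (49.6%) had one in tumour 1. The same share was 3.14% of 318 regions for tumour 2, 3.14% of 318 for tumour 3 and 3.45% of 319 for tumour 4. Tumour 1 therefore stood apart although its list was short: over all 3206 regions of the 6 activated lists its OHT list held 66.3%, against 53.8%, 77.5% and 65% in tumours 2, 3 and 4.

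**Figure D1:**
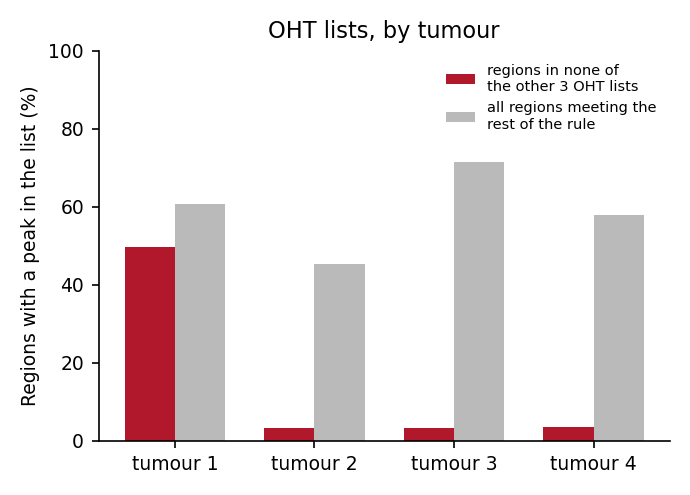
Share of regions with a peak in the OHT list of each KI tumour, in percent. Red bars cover the regions absent from the other 3 OHT lists and grey bars all 2448 regions that met the rest of the rule; the red bar of tumour 1 reaches 49.6% and those of tumours 2 to 4 lie at 3.14% to 3.45%.

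Peaks in the 308 regions were wider after doxorubicin than after (-)-Nutlin in each Arf-null tumour. Median widths over the 308 regions were 710.5, 928.5 and 831 bp in the doxorubicin lists of tumours 5, 6 and 7, and 563.5, 431.5 and 564 bp in the (-)-Nutlin lists. All 3 doxorubicin medians exceeded all 3 (-)-Nutlin medians, with means of 823 ± 109 bp and 520 ± 76.4 bp (SD, n = 3). The mean log2 difference was 0.67, a ratio of 1.59, and it was positive in 3 of 3 tumours (0.33, 1.11 and 0.56 on the log2 scale). A two-sided exact permutation test over libraries gave p = 0.1, the smallest value that 3 against 3 lists allow, and exact sign changes with the tumour as a block gave 0.25, likewise the lowest that 3 pairs can give. Over all 3206 regions of the 6 activated lists the medians were 731, 623.5 and 760 bp after doxorubicin and 611, 555.5 and 590 bp after (-)-Nutlin. The 308 regions thus lay above this background in the doxorubicin lists of tumours 6 and 7 and below it in the other 4 lists. Regions in exactly 1 OHT list were wider than the 308 in all 6 lists, with 834.5, 1003.5 and 912 bp after doxorubicin and 705.5, 514.5 and 690 bp after (-)-Nutlin.

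By percentile of width within each list, the order was the same. The median member stood at 78.8, 82.7 and 82.8 after doxorubicin and at 73.0, 53.5 and 60.3 after (-)-Nutlin in tumours 5, 6 and 7. For all 3206 regions the percentiles were 80.4, 62.8 and 78.0 after doxorubicin and 78.5, 77.2 and 65.6 after (-)-Nutlin.

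Doxorubicin lists as a whole also held wider peaks, so the width ratio was set against that of all 3206 regions. Per region, the median log2 ratio of doxorubicin to (-)-Nutlin width was 0.29, 1.10 and 0.55 in tumours 5, 6 and 7. Over all 3206 regions it was 0.22, 0.15 and 0.30. The peak was wider after doxorubicin in all 3 tumours in 279 of the 308 regions (90.6%), against 45.9% of the 3206, and wider after (-)-Nutlin in all 3 tumours in 0, against 4.21%. In the 303 regions of the OHT list of tumour 1 alone, the first of these shares was 85.1%. When widths were replaced by their percentile within each list, the first share was 62.0%, against 21.4% of the 3206.

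Tumour 6 gave the clearest separation from the 3206 regions. Every one of the 308 regions had a wider peak after doxorubicin in that tumour, with log2 ratios from 0.07 to 2.10, against 54.5% of the 3206 regions. Tumour 5 had 283 such regions and tumour 7 had 304, where the background was already 81.8% and 81.5%. The trait was not particular to the 308. Of the 303 regions in the OHT list of tumour 1 alone, 302 were also wider after doxorubicin in tumour 6. Among the 308, the (-)-Nutlin peak lay wholly inside the doxorubicin peak in 305 regions of tumour 6 (99.0%), 284 of tumour 7 (92.2%) and 227 of tumour 5 (73.7%). For all 3206 regions these shares were 46.4%, 62.1% and 60.0%. The (-)-Nutlin list of tumour 6 was the longer of that tumour, with 10674 peaks against 8250 after doxorubicin, and had the lowest list median of the 6, 417 bp.

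**Figure D2:**
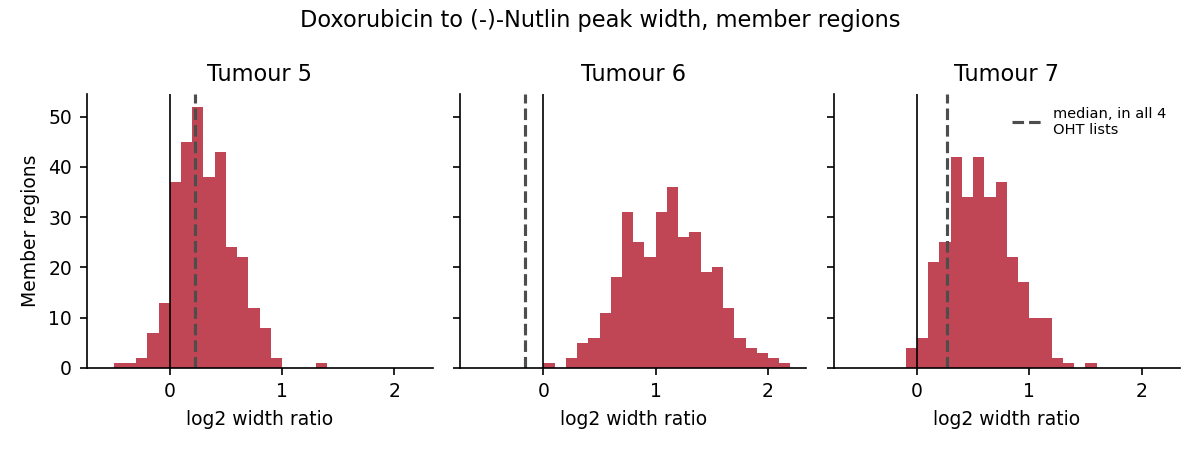
Number of member regions by log2 ratio of doxorubicin to (-)-Nutlin peak width, with 1 panel per Arf-null tumour. The solid line marks equal width and the dashed line the median of regions in all 4 OHT lists (0.22, -0.17 and 0.27); in tumour 6 every member lies to the right of both.

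A comparison within the rule used regions that the OHT lists did hold. As a comparator, 594 regions met the same rule except that all 4 OHT lists had a peak there. Their median widths were 667.5, 484.5 and 685 bp after doxorubicin in tumours 5, 6 and 7 and 569, 574 and 567 bp after (-)-Nutlin, and their log2 ratios were 0.22, -0.17 and 0.27. The (-)-Nutlin medians of these regions and of the 308 were close in tumours 5 and 7, at 569 and 563.5 bp and at 567 and 564 bp, but not in tumour 6, at 574 and 431.5 bp. The ratio of the 308 regions exceeded that of the comparator by 0.07, 1.27 and 0.28 in tumours 5, 6 and 7 on the log2 scale, a mean of 0.54 with the same sign in 3 of 3 tumours. Exact sign changes over the tumours gave p = 0.25, the smallest possible, and the mean of tumours 5 and 7 for the same regions was 0.17. This comparison was chosen after the widths were seen.

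Regions one step outside the rule had ratios that differed with the OHT list that held them. As a whole, those in a single OHT list had median log2 ratios of 0.23, 0.90 and 0.46 in tumours 5, 6 and 7. In 2 OHT lists the medians were 0.22, 0.05 and 0.27, and in 3 lists 0.23, -0.19 and 0.24. Tumour 5 ratios were thus nearly level from 1 OHT list on, and those of tumour 6 spread most. Within the single-list group, the 303 regions of OHT tumour 1 had ratios of 0.23, 0.92 and 0.46, and the 31 of tumours 2, 3 or 4 had 0.36, 0.26 and 0.34. In tumour 6 the regions of OHT tumour 1 alone were therefore near the 1.10 of the 308, and those of the other OHT tumours were not. Without tumour 1 in the rule, the 611 regions had ratios of 0.26, 1.01 and 0.51, and 537 of them (87.9%) were wider after doxorubicin in all 3 tumours.

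**Figure D3:**
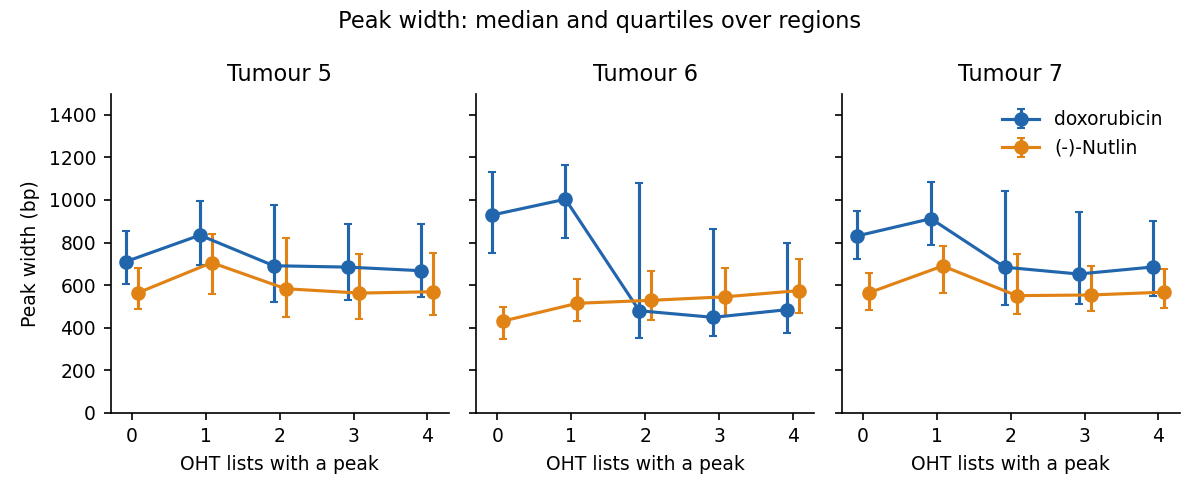
Median peak width in bp, with quartiles as bars, against the number of OHT lists with a peak, for 308, 334, 586, 626 and 594 regions from left to right. Blue points are doxorubicin and orange points (-)-Nutlin; the curves lie furthest apart in tumour 6 at 0 and 1 OHT lists, with 928.5 against 431.5 bp and 1003.5 against 514.5 bp.

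Regions were also ordered by their own widths. Ranked by mean log2 width ratio over the 3 tumours and divided into 10 classes of 244 or 245 regions, the 2448 regions held 0 members in each of the lowest 3 classes, then 3, 7, 24, 38, 63, 74 and 99 in the rest. In the highest class, where the mean log2 ratio ran from 0.76 to 1.66, members made up 40.4% of regions. Over all classes, 308 of the 2448 regions were members. Splitting the 2448 regions by tumour 6 alone gave 1400 with a wider peak after doxorubicin and 1048 without, and all 308 members were among the former. Presence in the OHT lists of tumours 1 to 4 was 68.9%, 36.2%, 51% and 26.7% among the former and 49.8%, 57.3%, 99.0% and 99.3% among the latter. Regions at least as wide after (-)-Nutlin in tumour 6 were therefore called almost without exception in OHT tumours 3 and 4, which were the 2 longest OHT lists. These shares describe the lists and have no test, since regions are not replicates.

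The 308 regions were wider than the comparator after doxorubicin, with medians of 710.5, 928.5 and 831 bp against 667.5, 484.5 and 685 bp in tumours 5, 6 and 7. After (-)-Nutlin they were narrower, with 563.5, 431.5 and 564 bp against 569, 574 and 567 bp. Averaged over both agents, the difference was 0.15 on the log2 scale (0.04, 0.26 and 0.14 in tumours 5, 6 and 7). The sign of this average was shared by 3 of 3 tumours and the exact sign-change p was 0.25, the smallest possible. The mean of tumours 5 and 7 for the same regions was 0.09. With the regions chosen again by the rule, the difference was 0.03 without tumour 6 (459 regions) and 0.01 without OHT tumour 4 (319 regions). Midpoints of the 6 peaks of a region spread over a median of 95.5 bp, against 113.75 bp in the comparator and 114 bp over all 3206 regions. The stretch common to all 6 peaks had a median of 405.5 bp, between the 394.5 bp of the comparator and the 412 bp of all 3206.

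The regions named by rank leave out chromosome 18, which held 8 of the 308, so a rank is a rank among the others. The 10 regions with the highest mean percentile of width show what the widest calls looked like. The first lay at chr8:25689584-25690984. Its peaks measured 1250, 1332 and 1370 bp after doxorubicin and 1187, 919 and 1127 bp after (-)-Nutlin in tumours 5, 6 and 7. It was also called in all 4 unactivated lists of tumour 5, with widths of 359 to 643 bp, and in no unactivated list of tumours 6 or 7. The nearest OHT peak was 85615 bp away.

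The second, at chr15:77293474-77294813, had 1336, 1336 and 1225 bp after doxorubicin and 1249, 1061 and 958 bp after (-)-Nutlin. Its log2 width ratios of 0.10, 0.33 and 0.35 were among the 5 smallest mean ratios of the regions with a shared sign, so a wide call did not require a large ratio. A region at chr14:63789181-63790540 was next, with 1360, 1206 and 1235 bp after doxorubicin and 1151, 747 and 897 bp after (-)-Nutlin. It was called in 10 of 12 unactivated lists, and in tumour 5 the peak was 938 to 1200 bp wide before any activation. Unactivated tumour 7 gave widths of 154 to 249 bp there.

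The other 7 were at chr15:92858572-92859962 and chr15:72835757-72837105, at chr13:73898733-73900209 and chr13:34679412-34680700, at chr9:64227769-64229153 and chr9:118484053-118485355, and at chr14:46291122-46292268. Their doxorubicin widths ran from 860 to 1477 bp and their (-)-Nutlin widths from 608 to 1122 bp. Each of the 10 was called in at least 4 unactivated lists, including all 4 of tumour 5. All 4 lists of tumour 5 held 38.0% of the 308 regions and 36.5% of the 3206. The lowest 3 by the same measure, at chr16:71885871-71886437, chr5:60869448-60870146 and chr1:94100296-94101057, had activated peaks of 300 to 682 bp and no unactivated peak. These 10 widest and 3 narrowest calls thus differed in whether tumour 5 already held a peak. The split was not complete outside these picked regions. A region with a mean percentile of 86.2 had no unactivated peak, and one at 45.7 was in all 4 unactivated lists of tumour 5.

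The largest width ratio with a shared sign outside chromosome 18 was at chr6:7676590-7678121. This region measured 1067, 1224 and 1510 bp after doxorubicin and 428, 316 and 533 bp after (-)-Nutlin, with log2 ratios of 1.32 in tumour 5 and 1.95 in tumour 6. Next was a region at chr2:26411309-26412735, with 695, 1427 and 810 bp against 392, 332 and 442 bp and no unactivated peak. Regions at chr1:133410274-133411658, chr2:32557721-32559012 and chr1:101569790-101570848 followed, with mean log2 ratios of 1.10, 1.10 and 1.09. In the chromosome 2 region from 32557721 the difference was absent in tumour 5, at 520 and 510 bp, and large in tumour 6, at 1292 and 315 bp.

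The smallest ratio among regions with a shared sign was at chrX:91923397-91924063. Its peaks were 559, 500 and 667 bp after doxorubicin and 546, 476 and 626 bp after (-)-Nutlin, nearly equal in each tumour, and 10 of 12 unactivated lists also held it. The remaining small ratios, with means of 0.25 to 0.27, belonged to regions at chr16:61479380-61479925, chr4:120888635-120889315 and chr14:56596798-56597896. Width ratios therefore varied widely inside the group, down to near equality among regions with a shared sign. Among the others the lowest log2 ratios were -0.42 in tumour 5 and -0.03 in tumour 7, where the (-)-Nutlin peak was the wider.

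Before activation the 308 regions had peaks most often in tumour 5, as did all 3206 regions, with no test of that difference. Untreated lists held 60.1%, 31.5% and 4.87% of the 308 regions in tumours 5, 6 and 7. Water lists held 59.1%, 17.5% and 6.17%, DMSO lists 45.5%, 4.22% and 5.84%, and (+)-Nutlin lists 53.2%, 4.22% and 3.90%. Over all 3206 regions the shares were 60.2%, 37.5% and 13% untreated, 52.8%, 30.9% and 15.5% with water, 43.5%, 18.2% and 16.4% with DMSO, and 55.3%, 21.5% and 13.9% with (+)-Nutlin. The 3206 include the 9.11% of regions called in every unactivated list, which raises the shares of the 3206 in all 12 lists. The rule leaves such regions out, but just 1 of them met the rest of the rule, so this condition hardly changed the members' shares. Regions that met the same rule but lay in 1 to 3 OHT lists had 53.8%, 30.1% and 4.79% untreated in tumours 5, 6 and 7. With water they had 46.9%, 22.3% and 8.15%, and with DMSO 39.5%, 10.3% and 9.12%. With (+)-Nutlin they had 50.7%, 12.7% and 6.02%. In each condition tumour 5 was the highest of the 3, and its lists were the wide ones among the unactivated lists. What part the kind of list has in this difference was not tested.

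**Figure D4:**
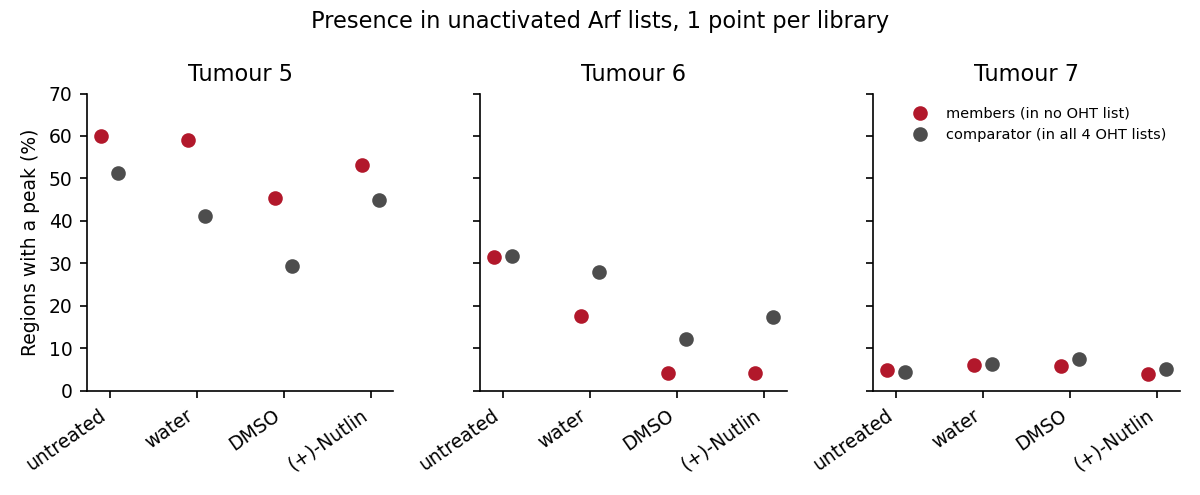
Share of regions with a peak in each unactivated Arf-null list, in percent, with 1 point per library. Red points are the 308 members and grey points the 594 regions in all 4 OHT lists; members lie above in tumour 5 (45.5% to 60.1% against 29.5% to 51.2%), at or below in tumour 6 and close by in tumour 7.

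The mirror-image Nutlin and its solvent differed in this share by less than the spread between tumours. (+)-Nutlin lists held 20.5% ± 28.4 (SD, n = 3) and DMSO lists 18.5% ± 23.4 (SD, n = 3) of the regions. The difference of 1.95 percentage points was made of 7.79, 0 and -1.95 in tumours 5, 6 and 7, and the two-sided exact permutation test gave p = 1. Water against untreated cells gave -4.55 points (27.6% ± 27.9 and 32.1% ± 27.6, SD, n = 3), p = 0.9 in the same exact test. DMSO against untreated cells gave -13.6 points, made of -14.6, -27.3 and 0.97, p = 0.6 by exact permutation. The lowest p that 3 against 3 lists can give is 0.1, and none of the 3 differences was detectable over 3 tumours.

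Counted over the 12 lists, calls before activation were spread unevenly. No unactivated peak was found in 83 of the 308 regions, 26.9% against 22.9% of the 3206 regions. Among regions of the same rule it was 27.9% for those in 1 to 3 OHT lists and 27.4% for those in all 4. At the other end, 6 regions (1.95%, against 1.84% of the 3206) were in 11 of the 12 lists and just met the rule. The region left out at 12 lies at chr11:106998616-106999615. Peaks in tumour 5 alone were found in 116 regions (37.7%, against 29.9% of the 3206). Of these, 36 were in all 4 lists of tumour 5, which is 11.7% of the 308 against 6.64% of the 3206. That share was 8.67% for regions of the same rule in 1 to 3 OHT lists and 3.70% for those in all 4. Just 3 regions (0.97%, against 5.18%) had a peak in tumours 6 or 7 but not 5. All 4 lists of tumour 5 held 38.0% of the 308 and 36.5% of the 3206. The same shares were 1.95% and 14.3% for tumour 6 and 1.30% and 10.1% for tumour 7. In all 3 tumours the 3206 again include the regions in every list. Regions of the same rule in 1 to 3 OHT lists had 33.4%, 6.08% and 1.29% in tumours 5, 6 and 7. Those in all 4 OHT lists had 23.2%, 8.25% and 1.01%.

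**Figure D5:**
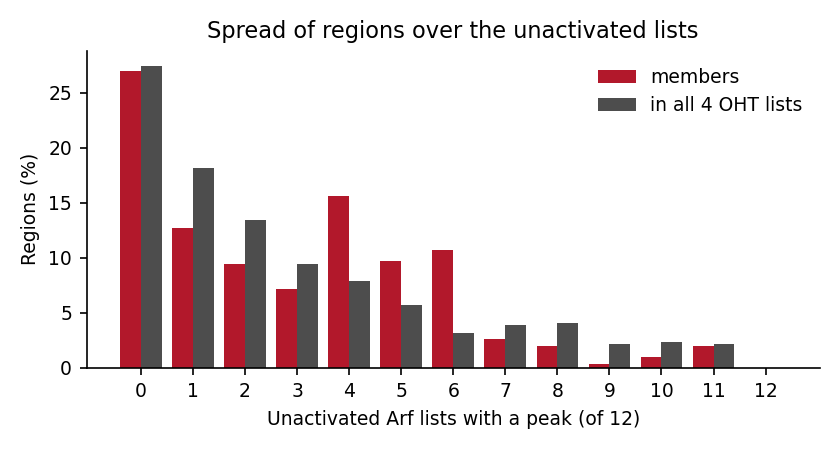
Percent of regions by the number of unactivated Arf-null lists with a peak, from 0 to 12, for the 308 members (red) and the 594 regions in all 4 OHT lists (dark grey). Members exceed the comparator at 4, 5 and 6 lists, with 15.6%, 9.74% and 10.7% against 7.91%, 5.72% and 3.2%.

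Against the comparator, calls before activation went opposite ways in tumours 5 and 6. The 308 regions were called more often than the comparator in all 4 lists of tumour 5, by at least 8.30 percentage points and by 12.8 on average. In tumour 6 all 4 differences were negative, from -0.16 to -13.3 points with a mean of -7.98, and in tumour 7 the mean was -0.70. Over the 3 tumours the mean difference was 1.37 points with an exact sign-change p of 1. Tumours 6 and 7 alone gave -4.34 points for the same regions, so the pooled sign rests on tumour 5.

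The 5 regions in most unactivated lists by rank lay at chr4:39328646-39329686, chr3:157565633-157567132, chr19:46104063-46105381, chr7:59589198-59590209 and chr10:17036325-17037211. Each was in 11 of 12 lists. In the chromosome 3 region, untreated, water, DMSO and (+)-Nutlin peaks of tumour 5 were 1057, 1350, 880 and 850 bp wide, whereas doxorubicin and (-)-Nutlin gave 601 and 580 bp. The peak there was thus wider before activation in tumour 5. In tumour 6 the order was the reverse for doxorubicin, with 1337 bp against 340 to 614 bp in the unactivated lists. The chromosome 14 region from 3271993, the one farthest from any OHT peak, was also in 11 of 12 lists. It had 623, 618 and 598 bp after doxorubicin and 600, 283 and 421 bp after (-)-Nutlin. No filter for repeats or stretches of high background was applied here, and whether the submitters applied one is unknown.

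The width ratio was positive at the median in regions with and without a peak before activation. In the 83 regions with no unactivated peak the median log2 ratios were 0.32, 1.01 and 0.42 in tumours 5, 6 and 7. They were 0.27, 1.16 and 0.54 in the 90 regions with 1 to 3 such peaks, 0.28, 1.06 and 0.48 in the 48 with 4, and 0.26, 1.19 and 0.64 in the 87 with 5 to 11. Differences between these groups were not tested. The share wider after doxorubicin in all 3 tumours was 92.8%, 88.9%, 93.8% and 88.5% in that order. After doxorubicin in tumour 6 the median width was 753 bp in the first of these groups and 1148 bp in the last.

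The regions were scattered over the genome. They lay on every autosome and on X, none on Y, with a median gap of 4.92 Mb between neighbours on the same chromosome, and 10 of 288 gaps were under 100 kb. By chromosome, members made up from 4.81% (10 of 208, chromosome 5) to 27.3% (9 of 33, chromosome X) of the regions in all 6 activated lists. Chromosome 13 had the next highest share, 15.2% (19 of 125). On chromosome X the 9 members had width ratios of 0.27, 0.73 and 0.30, below the medians of the whole group in each tumour, and the 33 regions in all 6 lists had 0.26, 0.71 and 0.42. These shares have no test, and the counts on X are small.

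On the activated side, the edge of the rule lay mostly at (-)-Nutlin lists. No such count was made over regions outside the rest of the rule. Whether it is particular to this group was therefore not tested. A further 226 regions met the rest of the rule with a peak in 5 of the 6 activated lists. The missing list was (-)-Nutlin tumour 6 in 133 of them, (-)-Nutlin tumour 7 in 82, doxorubicin tumour 6 in 9, and doxorubicin tumour 5 and (-)-Nutlin tumour 5 in 1 each. In 0 regions was doxorubicin tumour 7 the missing list. (-)-Nutlin tumour 7 had the shortest list of the 6, with 5617 peaks, and (-)-Nutlin tumour 6 the second longest, with 10674.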

How the data were processed

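The measurements were 26 p53 peak lists, 1 per ChIP library, and 7 input libraries were not used here. The authors deposited chromosome, start and end of each peak, with no score, height or count, so depth is unknown. Per the labels' protocols, chromatin fragments averaged 250 bp. Per the submitters' processing notes, BWA 0.6.2, SAMtools and mm9 were used, and the peak caller is not given in the sources used here. No mm9 genome or annotation was used here, so genes, motifs and sequences were not analysed.

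Peaks sharing 1 bp were merged (Python 3.11.15, numpy 2.4.6, pandas 2.3.3), and widths of several peaks in a region were summed. Tests were two-sided exact permutations over libraries and exact sign changes over tumours, with a threshold of 0.05. Lists with the same tumour number in their titles come from 1 tumour, which pairs them. The exact sign changes use this pairing, and their p-values measure the spread between these numbered tumours. The exact permutations shuffle libraries and ignore the pairing. The code was tested on simulated lists.

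Named regions, leaving out chromosome 18, were the 10 highest and 3 lowest by mean percentile of width, the 5 in most unactivated lists, the 5 largest and 5 smallest width ratios with 1 sign in all 3 tumours, and the 3 nearest to and 3 farthest from an OHT peak. The members, lists and tests were chosen with earlier results of these data known. Alternatives were other merging, width, OHT and list-length rules, the tumour as a block, and leaving out each tumour. The width-ratio results, their percentile form and the averages over 2 tumours were added after seeing the data.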

Additional observations from a re-analysis of the deposited data

Results flagged for a closer look

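OHT tumour 1 lay far from the other KI tumours in the number of regions held by a single OHT list, 303 against 10, 10 and 11. It lay as far apart in the share of regions, absent from the other 3 OHT lists, that had a peak in its own list, 49.6% against 3.14% to 3.45%. Both values were compared with the other 3 tumours by the gap to the nearest of them. The 2 values rest on the same regions. Such a gap was looked for in 5 groups of 4 values, and chance produces 1 in about 1 in 20 groups of unrelated values. The values here come from the OHT lists that the rule itself uses, and each excludes regions of the other lists. That rate is therefore no test of them, and they describe the lists.

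The share of the 308 regions with a peak before activation, less that of the regions in all 4 OHT lists, had opposite signs in 2 Arf-null tumours. It was 12.8 percentage points in tumour 5, positive in 4 of 4 lists, and -7.98 points in tumour 6, negative in 4 of 4 lists. The untreated list of tumour 6 gave just -0.16 points. Against regions in 1 to 3 OHT lists, that list held 31.5% of the 308 and 30.1% of the others. The water, DMSO and (+)-Nutlin lists of tumour 6 stayed lower for the 308. The difference between the tumours was not tested. The unactivated lists of tumour 5 were wide and those of tumour 6 narrow.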

How the results depend on the processing

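The number of regions was 158 when the activated lists were cut to their widest 5617 peaks, 642 when 1 OHT list was allowed, 534 when 5 of 6 activated lists sufficed, and 83 when no unactivated list could have a peak. It ran from 312 to 611 when 1 tumour was left out, with 611 reached without tumour 1. The share wider after doxorubicin in all 3 tumours (90.6%) was 86.4% with 1 OHT list allowed, 62.0% by percentile of width, and 87.9% to 98.4% with 1 tumour left out. The last value is the share wider in both remaining Arf-null tumours, over the 312 regions chosen without tumour 5.

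With the tumour as a replicate block the exact p was 0.25 for doxorubicin against (-)-Nutlin width (0.67 on the log2 scale), 1 for (+)-Nutlin against DMSO (1.95 points), 0.75 for water against untreated (-4.55) and 0.5 for DMSO against untreated (-13.6), and no call changed. Since 3 tumours cannot give p under 0.05, the tests say nothing about stability. With 1 tumour left out the regions were chosen again, 312 to 611 of them, and 3 of the 4 differences of presence reversed. (+)-Nutlin against DMSO ran from -0.96 (without tumour 5) to 3.44 points, and water against untreated from -6.38 to 0.22 (without tumour 6). Members against the comparator ran from -4.33 (without tumour 5, 312 regions), or -4.30 without tumour 4 (319 regions), to 10.1 without tumour 1 (611 regions). DMSO against untreated kept its sign, from -19.3 to -5.66 points, the latter without tumour 6. The cause was not tested. Width differences kept their direction in every alternative run. Peaks without scores and unknown depth limit every absence to a peak that was not called.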
